A study of Mus musculus with 9 samples.

Results

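The genes described here are 34 genes of cholesterol synthesis, fatty acid synthesis and cholesterol efflux in mouse macrophages treated with lipopolysaccharide (LPS). They were chosen by name, and all 34 were among the 22165 gene rows of the deposited count table, matched by Ensembl identifier. By role they comprise 17 targets of the transcription factor SREBP2, 5 targets of the liver X receptors (LXRs), 4 regulators of these pathways, 4 genes of fatty acid synthesis, and 4 genes of cholesterol transport, storage and oxysterol production. A filter on low counts was passed by 33 of them, and Scd1 was below it. The cells were bone marrow-derived macrophages of C57BL/6N mice aged 6 to 16 weeks, and all groups received LPS at 100 ng/mL for 24 h. The 9 libraries comprised 3 labelled wild type (WT), 3 labelled Irg1-/- (KO), and 3 labelled Irg1-/- with 1 mM itaconate added 4 h after LPS (itaconate, ITA in the plots). There was no group without LPS. The product of Irg1 (Acod1 in current nomenclature) is the enzyme that synthesises itaconate. Neither the deleted stretch of Irg1 nor the source animal of each replicate is given in the labels, so p-values measure a spread between samples that may be technical.

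Cholesterol synthesis runs from acetyl-CoA through mevalonate, isoprenoids and squalene to lanosterol, which is then trimmed to cholesterol. When sterols in the endoplasmic reticulum are low, the escort protein SCAP carries SREBP2 to the Golgi, where it is cleaved into an active factor that induces nearly every enzyme of the pathway. When sterols are high, INSIG proteins hold SCAP back, and oxysterols activate LXRs, which induce the cholesterol exporters ABCA1 and ABCG1. Both programmes are active in macrophages and act in opposite directions on cellular cholesterol.

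Promoters of members on both sides of that division are shown with matches to the sterol regulatory element and to the CCAAT box. RefSeq windows of 300 bases on GRCm38.p6, from 250 bases before to 50 after the transcript start, were matched for 26 of the 34 members. Capitals mark the sterol regulatory element TCACNCCAC and the CCAAT box, both searched on either strand, so that ATTGG is a CCAAT box on the opposite strand.
Hmgcs1 (chr13:119690101-119690400, plus strand): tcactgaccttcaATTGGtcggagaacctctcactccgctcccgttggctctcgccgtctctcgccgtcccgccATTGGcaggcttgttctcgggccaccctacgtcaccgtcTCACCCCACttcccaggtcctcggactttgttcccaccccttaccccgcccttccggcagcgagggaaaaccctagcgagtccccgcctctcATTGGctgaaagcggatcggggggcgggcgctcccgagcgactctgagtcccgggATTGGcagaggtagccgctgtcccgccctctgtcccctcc
Insig1 (chr5:28071162-28071461, plus strand): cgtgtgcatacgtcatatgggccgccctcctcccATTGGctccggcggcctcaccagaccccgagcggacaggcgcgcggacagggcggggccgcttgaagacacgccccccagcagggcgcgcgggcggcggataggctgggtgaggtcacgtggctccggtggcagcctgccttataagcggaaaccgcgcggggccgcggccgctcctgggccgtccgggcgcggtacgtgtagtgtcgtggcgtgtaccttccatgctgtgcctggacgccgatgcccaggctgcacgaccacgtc
Mylip (chr13:45389492-45389791, plus strand): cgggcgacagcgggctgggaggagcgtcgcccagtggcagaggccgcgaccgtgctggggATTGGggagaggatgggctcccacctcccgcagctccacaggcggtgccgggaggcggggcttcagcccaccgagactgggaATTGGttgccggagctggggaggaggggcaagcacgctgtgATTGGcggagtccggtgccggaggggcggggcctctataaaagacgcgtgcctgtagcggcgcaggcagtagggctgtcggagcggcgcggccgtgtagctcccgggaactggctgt
Abca1 (chr4:53159846-53160145, minus strand): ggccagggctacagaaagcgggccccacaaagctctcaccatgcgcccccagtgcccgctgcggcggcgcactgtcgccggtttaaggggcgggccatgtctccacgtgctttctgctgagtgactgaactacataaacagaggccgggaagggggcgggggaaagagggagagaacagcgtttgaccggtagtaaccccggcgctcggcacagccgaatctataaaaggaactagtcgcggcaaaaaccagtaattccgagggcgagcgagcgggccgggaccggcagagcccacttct
Hmgcs1 was the member with a match to the sterol regulatory element, with its first base 137 bases before the transcript start. Such a match was held by 1.44% of 27025 genes with a window. A CCAAT box was present in at least 1 window of all 13 SREBP2 targets that had a window, and in 2 of 4 such LXR targets. A CCAAT box was held by 41.1% of all 27025 genes with a window. Neither Insig1 nor Abca1 matched the sterol element, and Abca1 also lacked a CCAAT box in this window. The LXR element was searched as 2 exact copies of AGGTCA in the same direction with 4 bases between them. It matched no member, and 4 of 27025 genes with a window (0.0148%). With so rare a match, its absence does not show that a promoter lacks an LXR element with other letters. A match is a description of letters and not of binding.

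Gene reads ranged from 7361671 to 20430359 per library. CPM are read counts scaled to a common total of gene reads, with library totals adjusted by the trimmed mean of M-values (TMM). Because the reads come from 3′ ends, CPM were not divided by length and levels are not ranked between genes. In this unit 3 reads, the limit that a count of 0 allows, correspond to 0.147 to 0.401 CPM, which covers counting error only. Irg1 itself went against the labels of 4 libraries. It measured 11.3, 9.13 and 4167 CPM in WT replicates 1 to 3, 7.52, 12.9 and 4418 CPM in KO replicates 1 to 3, and 8.68, 0.877 and 6408 CPM in itaconate replicates 1 to 3. WT replicates 1 and 2 were thus low and KO replicate 3 and itaconate replicate 3 high, and every direction below is between groups as labelled. Results are also given without these 4 libraries, which leaves 1 library labelled WT, assumed to vary like the other groups. The description of each library also holds a number from 1 to 4 before its barcode, here called the description number, whose meaning the labels do not give. It is 1 for all WT libraries and KO replicates 1 and 2, 2 for KO replicate 3 and itaconate replicate 1, 3 for itaconate replicate 2 and 4 for itaconate replicate 3. It thus overlaps with group, and a fit with it as a term compares itaconate with KO through only 1 pair of libraries. Leaving out the 4 libraries removes KO replicate 3 of that pair. The WT and KO libraries left then all have number 1 and the itaconate libraries 2 or 3. Itaconate and the number cannot be told apart in that fit. Itaconate replicate 3 stood apart as well. Reads outside genes were 33.7% of that library and at most 28.4% of any other, and ambiguous reads 0.275% against 0.377% or more. Its mean correlation with the other libraries was 0.909, against 0.939 or more elsewhere, and 26% of tested genes had their lowest value there and 19.8% their highest. All 7 macrophage markers examined had reads in every group. They summed to 7260 to 9546 CPM in WT, 6513 to 7040 CPM in KO and 3583 to 7059 CPM in itaconate, with the lowest sum in itaconate replicate 3. Adgre1, Csf1r, Cd68, Lyz2 and Fcgr1 were each lowest in that library. Mertk was at 179.3 CPM there and 178.9 CPM in WT replicate 3. Itgam was at 980.2 CPM there, above all libraries but WT replicate 2 and KO replicate 1. The neutrophil markers summed to 231.6 to 245.2, 161 to 210.8 and 78.74 to 214 CPM, with S100a8 and S100a9 as their main source. The 4 fibroblast markers summed to 183.5 to 269, 187.1 to 219.4 and 165.9 to 270.9 CPM. T cell, B cell, dendritic cell and erythroid markers stayed at or below 1.405 CPM, with Cd3e, Cd2 and Cd79a at 0 reads throughout, and the 3 endothelial markers ranged from 6.649 to 17.31 CPM. The part of these differences in the results below was not tested. In bulk samples fewer cells of a type and less RNA per cell cannot be told apart.

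Across the 3 comparisons no member passed the edgeR quasi-likelihood threshold of 0.05 after Benjamini-Hochberg adjustment, and the smallest adjusted p of a member was 0.549. The same test called 0% of 10781 genes in each comparison. At an unadjusted p under 0.05 KO against WT had 1 member of 33, Soat1, where 3.13% of all tested genes reached that level. Itaconate against KO had 2 members, Sc5d and Srebf2, against 8.3% of all tested genes, and itaconate against WT had 2, Npc1 and Ch25h, against 8.89%. DESeq2 called 1, 12 and 17 genes in the comparisons taken in that order (0.00928%, 0.111% and 0.158% of those tested), none of them a member. Without the 4 libraries edgeR called 2, 217 and 1 genes (0.0176%, 1.91% and 0.00882%), again no member. The differences described next are therefore values with their errors and not calls.

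**Figure D1:**
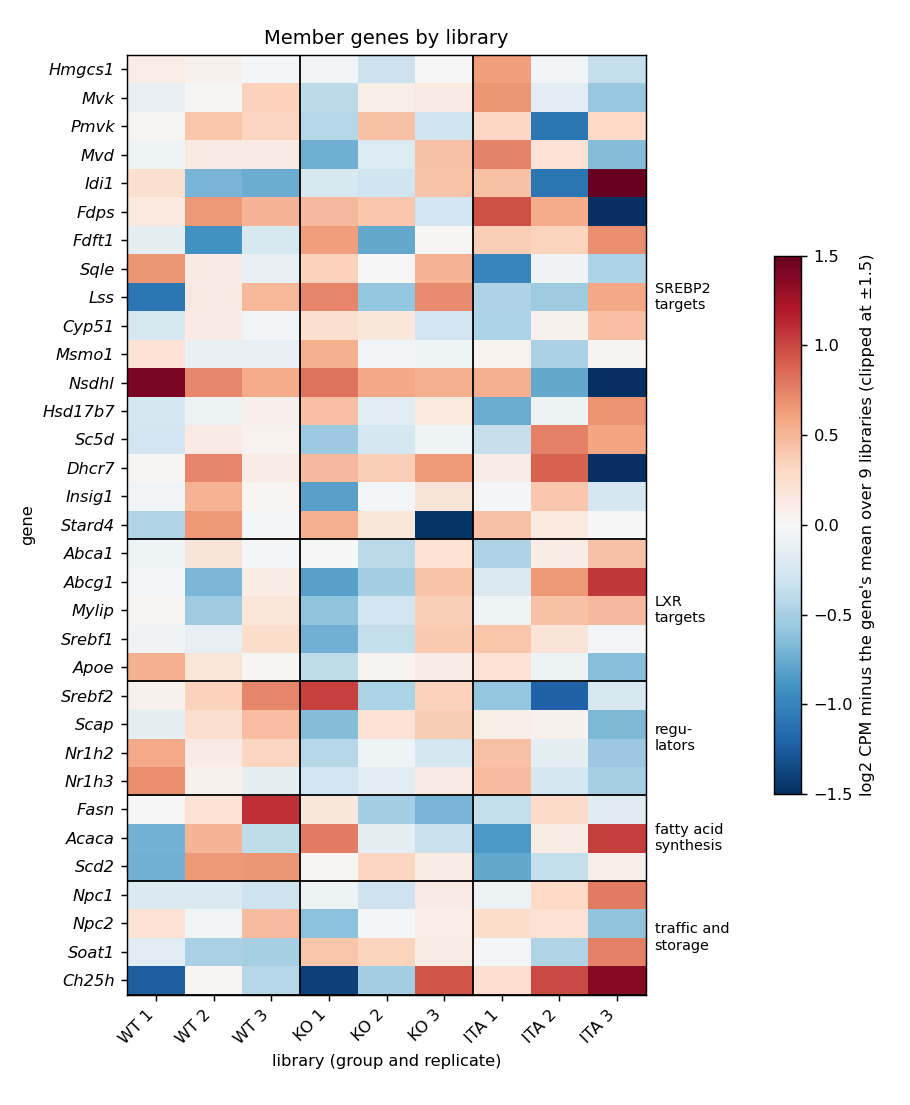
Each row is 1 of the 33 tested member genes and each column 1 library, coloured by log2 CPM minus the mean of that gene over 9 libraries, with colours clipped at 1.5 in either direction. Nsdhl, Fdps and Dhcr7 are darkest blue in ITA replicate 3, and Stard4 in KO replicate 3, whereas Abcg1 and Mylip share 1 pattern over the 9 columns.

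Of the early enzymes of the mevalonate pathway, Hmgcs1, Mvk, Pmvk and Mvd had log2 fold changes smaller than their SE in all 3 comparisons. Hmgcs1, which condenses acetyl-CoA units to HMG-CoA, measured 21.6, 21.1 and 19.9 CPM in WT, 19.7, 16.2 and 20.1 CPM in KO, and 31.2, 19.6 and 15.7 CPM in itaconate. The highest and the lowest of its 9 values were both in the itaconate group, so the groups overlapped. Its log2 fold change was -0.16 ± 0.30 (SE) for KO against WT and 0.25 ± 0.30 for itaconate against KO. Mvk, Pmvk and Mvd, the 2 kinases and the decarboxylase that turn mevalonate into isopentenyl diphosphate, had log2 fold changes between -0.32 and 0.32 in these 2 comparisons, each smaller than its SE. Idi1, the isomerase that follows, measured 3.60, 1.80 and 1.74 CPM in WT, 2.54, 2.42 and 4.13 CPM in KO, and 4.15, 1.32 and 12.2 CPM in itaconate. Its difference between itaconate and WT, 1.32 ± 0.67 on the log2 scale, was 0.23 without itaconate replicate 3 and 0.08 with the description number as a term. Fdps makes farnesyl diphosphate, the last shared intermediate of sterols and prenylated proteins. It had 14 to 51 reads in 8 libraries and 0 in itaconate replicate 3, where up to 0.317 CPM is allowed.

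The squalene steps differed in direction among themselves. Fdft1, the squalene synthase, measured 3.60, 2.03 and 3.34 CPM in WT, 6.20, 2.27 and 4.03 CPM in KO, and 5.17, 5.04 and 6.54 CPM in itaconate. All its itaconate values lay above all WT values (log2 fold change 0.91 ± 0.48, or 0.60 without the 4 libraries). Sqle, the squalene epoxidase and a rate-limiting enzyme, measured 11.4, 7.80 and 6.55 CPM in WT, 9.13, 7.10 and 10.2 CPM in KO, and 3.51, 6.90 and 5.07 CPM in itaconate. Every itaconate value of Sqle lay below every KO value, the nearest pair being 6.90 and 7.10 CPM (log2 fold change -0.77 ± 0.38, edgeR adjusted p = 0.604). Without the 4 libraries that difference was -0.68, and with the description number as a term -1.54. Sqle was the member whose KO and itaconate groups did not overlap, 1 of 33 where 10.9% of all tested genes did not. Lss, which closes squalene epoxide into lanosterol, had log2 fold changes of 0.43 ± 0.57 for KO against WT and -0.46 ± 0.57 for itaconate against KO.

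Among the enzymes after lanosterol, Cyp51, Msmo1 and Hsd17b7 had log2 fold changes between -0.28 and 0.25 in all 3 comparisons, none larger than its SE. Sc5d, the lathosterol desaturase, measured 25.6, 33.9 and 32.5 CPM in WT, 21.3, 25.9 and 29.9 CPM in KO, and 24.6, 52.7 and 47.1 CPM in itaconate. Itaconate replicates 2 and 3 were the highest of the 9, whereas replicate 1 lay within the KO range. The difference between itaconate and KO was 0.69 ± 0.31 (adjusted p = 0.597 by edgeR), and 0.67 without the 4 libraries. With the description number as a term its sign turned, to -0.28. Nsdhl removes a methyl group on the way to cholesterol. It measured 9.60, 5.85 and 5.21 CPM in WT, 6.25, 5.29 and 5.11 CPM in KO, and 5.17, 1.97 and 0 CPM in itaconate. Its itaconate values lay below every WT value, at -1.51 ± 0.77, and the difference was -0.93 without itaconate replicate 3, -2.80 without itaconate replicate 1, -0.53 without the 4 libraries and -0.24 with the description number as a term. Dhcr7, the last reductase of the pathway, had 22 to 79 reads in 8 libraries and 1 in itaconate replicate 3. Its log2 fold change for itaconate against KO was -0.51 ± 0.73, and 0.04 without that library. That library held the lowest value of 5 of the 17 SREBP2 targets and the highest of 4.

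Insig1, the retention factor for SCAP and itself an SREBP target, measured 26.2, 38.7 and 27.4 CPM in WT, 15.2, 26.3 and 30.7 CPM in KO, and 26.6, 35.7 and 22.5 CPM in itaconate. The ranges overlapped in each comparison, and its log2 fold changes were -0.36 ± 0.32, 0.24 ± 0.32 and -0.12 ± 0.32 in the order KO against WT, itaconate against KO and itaconate against WT. Stard4, a cytosolic sterol carrier, had its lowest value, 3.34 CPM, in KO replicate 3 and its highest, 15.1 CPM, in WT replicate 2. Its KO against WT value was -0.16 ± 0.45, and it ranged from -0.56 without KO replicate 1 to 0.26 without KO replicate 3 when 1 library was left out. The 15 SREBP2 targets with reads in all libraries had a median ratio of highest to lowest library of 2.88.

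As a list the SREBP2 targets were balanced. In KO against WT 8 of 17 had a log2 fold change above 0, where 48.9% of all tested genes did, with a list median of -0.14 beside -0.01 over all genes. In itaconate against KO 10 of 17 were above 0 (48.4% of all genes), with a median of 0.02 beside -0.02. In itaconate against WT 8 of 17 were above 0 (49.1% of all genes), with a median of -0.02 beside -0.01. Without the 4 libraries the 3 medians were 0.12, 0.09 and 0.18 in the same order. Nor did their rank orders over the libraries show the targets varying as a block. Over the 9 libraries the 136 pairs of SREBP2 targets had a median Spearman rho of -0.03, with 44.1% of pairs above 0, and all pairs of tested genes had a median of 0 with 50% above 0. Without itaconate replicate 3 the median within the list was 0.02.

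Among the LXR targets, 2 had nearly parallel values. Abcg1 (ENSMUSG00000024030.6, chr17:31057675-31117988, plus strand in GRCm38) encodes an exporter of cholesterol to high-density lipoprotein. It measured 219, 139 and 241 CPM in WT, 127, 154 and 299 CPM in KO, and 191, 349 and 462 CPM in itaconate. Mylip (ENSMUSG00000038175.9, chr13:45389742-45412022, plus strand) encodes the ubiquitin ligase IDOL, which degrades lipoprotein receptors. It measured 165, 112 and 184 CPM in WT, 107, 133 and 207 CPM in KO, and 155, 220 and 227 CPM in itaconate. Both genes put the 9 libraries in 1 order, from KO replicate 1 through WT replicate 2, KO replicate 2, itaconate replicate 1, WT replicate 1, WT replicate 3, KO replicate 3 and itaconate replicate 2 to itaconate replicate 3. Over 9 libraries Spearman's rho was 1 and Pearson's r of log2(CPM + 1) was 0.969, or 0.986 without the 2 libraries farthest from the Abcg1 median. Mylip was the 1 gene of 10780 others tested to share the order of Abcg1. The pair was noticed in these values, so the correlation is a description with no test. Within each library both genes also share the same depth and scaling.

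In each labelled group replicate 3, the library with Irg1 at 4167 CPM or more, held the highest Abcg1 and the highest Mylip value. They were the 2 of 33 tested members with that pattern, which 5.55% of all tested genes had. The highest 3 libraries of both genes have a description number other than 1, and the 5 libraries with the number 1 include the 3 lowest. The part of this number in the differences between groups was not tested beyond the fits given below.

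**Figure D2:**
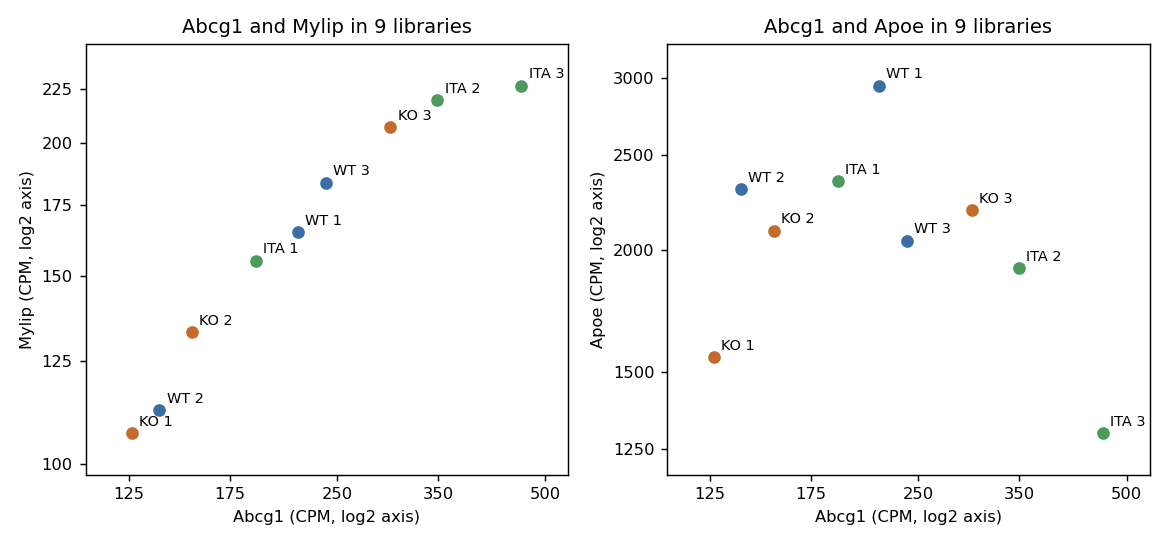
Each point is 1 library, plotted by Abcg1 in CPM on the horizontal axis against Mylip (left) or Apoe (right) in CPM, with both axes on a log2 scale and colours for WT (blue), KO (orange) and ITA (green). Abcg1 and Mylip order all 9 libraries alike, whereas Apoe is lowest in ITA replicate 3, where Abcg1 is highest at 462 CPM.

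Abca1, the exporter of cholesterol to lipid-poor apolipoprotein A-I, measured 723, 860 and 741 CPM in WT, 755, 572 and 878 CPM in KO, and 545, 815 and 1020 CPM in itaconate. Its lowest and highest values were both in the itaconate group, and its log2 fold change was 0.11 ± 0.29 for itaconate against KO. Srebf1, which encodes the lipogenic factor SREBP1 and has LXR-dependent transcripts, measured 17.3, 16.5 and 21.7 CPM in WT, 10.9, 14.1 and 23.6 CPM in KO, and 24.0, 20.6 and 17.8 CPM in itaconate. The lowest value was in KO replicate 1 and the highest in itaconate replicate 1, with KO replicate 3 next to it, so its groups overlapped. Apoe, the apolipoprotein that macrophages secrete with cholesterol, measured 2945, 2307 and 2044 CPM in WT, 1553, 2092 and 2195 CPM in KO, and 2352, 1915 and 1298 CPM in itaconate. Its rho with Abcg1 was -0.3.

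Log2 fold changes of the 5 LXR targets between KO and WT were all below 0 but small, from -0.32 ± 0.29 for Apoe to -0.05 ± 0.32 for Mylip, with a median of -0.08. Between itaconate and KO 4 of 5 were above 0. Abcg1 was at 0.79 ± 0.39 (edgeR adjusted p = 0.604), Mylip at 0.43 ± 0.32, Srebf1 at 0.37 ± 0.32 and Apoe at -0.07 ± 0.29, and the median was 0.37. The groups of each of the 5 overlapped in all 3 comparisons. These medians turned on single libraries. Without KO replicate 3 the median was -0.40 for KO against WT and 0.73 for itaconate against KO, and without KO replicate 1 it was 0.03 and 0.15. Abcg1 for itaconate against KO was 0.48 without itaconate replicate 3, 1.24 without KO replicate 3 and -0.64 with the description number as a term. Without the 4 libraries Abcg1 was at 0.91 in that comparison, the medians were -0.59 and 0.61, and for itaconate against WT 0.04 in place of 0.18. Among the 5 libraries with description number 1, the KO against WT median was -0.40. With the description number as a term the itaconate against KO median was -0.42. KO against WT and itaconate against KO use the same KO libraries, so opposite signs in them are not independent.

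**Figure D3:**
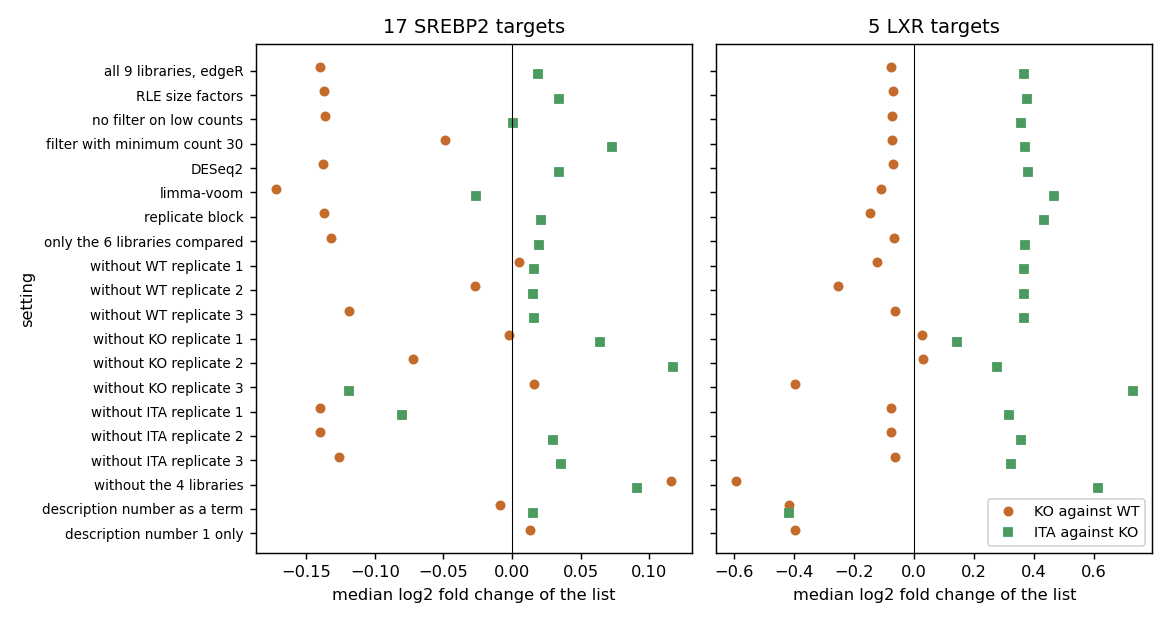
Each row is 1 way of fitting the data, and points give the median log2 fold change of the 17 SREBP2 targets (left) and 5 LXR targets (right) for KO against WT (circles) and itaconate against KO (squares); the 2 panels have different horizontal scales. The SREBP2 medians lie between -0.17 and 0.12, and the LXR medians between -0.59 and 0.73. The LXR medians depend on KO replicates 1 and 3 and on the description number term. The lists hold 17 and 5 genes, so the widths of the 2 ranges cannot be compared directly.

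To set the 2 programmes side by side, each library was given the mean over a list of log2 CPM minus the mean of that gene over 9 libraries. SREBP2 target means were 0.01, 0.15 and 0.08 in WT, 0.12, -0.03 and 0.07 in KO, and 0.13, -0.06 and -0.48 in itaconate. The low value of itaconate replicate 3 came from Nsdhl, Fdps and Dhcr7, and the median over the 17 genes in that library was 0.01. LXR target means were 0.09, -0.19 and 0.11 in WT, -0.50, -0.30 and 0.30 in KO, and -0.02, 0.26 and 0.26 in itaconate. SREBP2 minus LXR was therefore -0.08, 0.35 and -0.03 in WT, 0.62, 0.28 and -0.23 in KO, and 0.15, -0.32 and -0.74 in itaconate. KO replicate 1 and itaconate replicate 3 were the 2 ends, and KO replicate 3 lay nearest to itaconate replicate 2. The end at itaconate replicate 3 came from Nsdhl, Fdps and Dhcr7, with 0, 0 and 1 reads there. It does not describe the 17 SREBP2 targets as a list. The difference between the list medians of log2 fold change was -0.06 for KO against WT, -0.35 for itaconate against KO and -0.19 for the itaconate to WT contrast. Without the 4 libraries these were 0.71, -0.52 and 0.14, so that the sign turned for KO against WT and for itaconate against WT. The WT library left there is replicate 3, and the KO and itaconate libraries left are replicates 1 and 2. Differences from WT and from replicate number cannot be told apart in that fit. For itaconate against KO the difference was -0.08 without KO replicate 1 and turned to 0.43 with the description number as a term. No sign of this contrast therefore held under every setting. The 85 pairs of an SREBP2 and an LXR target had a median rho of 0, with 49.4% above 0. The 10 pairs of LXR targets had a median of 0.36 with 60% above 0, and a median of 0.24 without itaconate replicate 3.

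**Figure D4:**
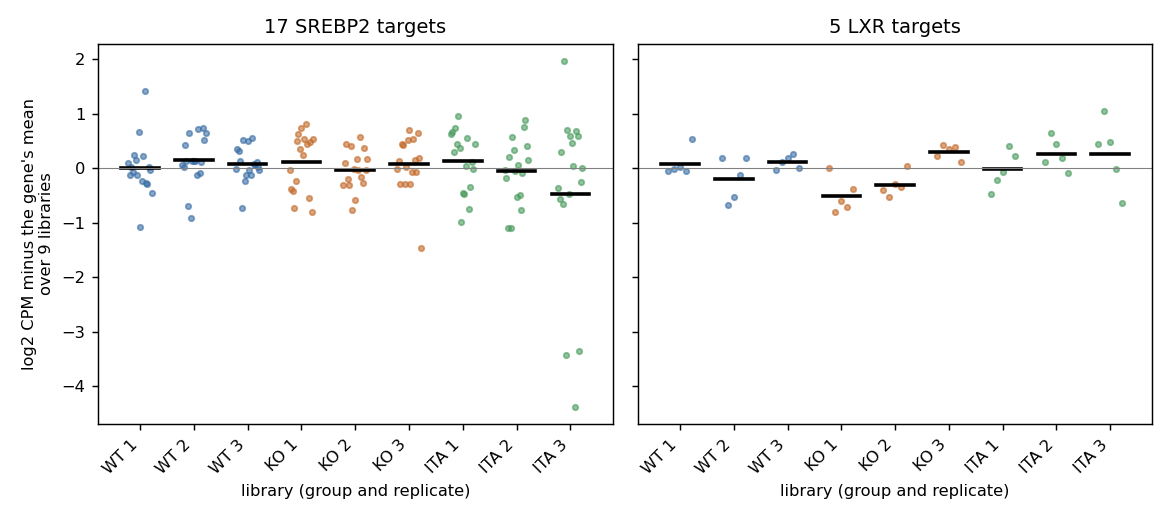
Points are genes and black bars their mean in each library, as log2 CPM minus the mean of that gene over 9 libraries, for the 17 SREBP2 targets (left) and the 5 LXR targets (right). Apart from ITA replicate 3, where 3 genes lie below -3, the SREBP2 means lie between -0.06 and 0.15, whereas the LXR means run from -0.50 in KO replicate 1 to 0.30 in KO replicate 3.

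Log2 fold changes above 0 were found for 1 of 4 regulators in KO against WT, 2 of 4 in itaconate against KO and 0 of 4 in itaconate against WT, with medians of -0.26, -0.06 and -0.36. Srebf2 (ENSMUSG00000022463.7, chr15:82147181-82205379, plus strand) encodes SREBP2 and is induced by its own product. It measured 3.72, 4.53 and 6.02 CPM in WT, 7.37, 2.49 and 4.52 CPM in KO, and 2.31, 1.42 and 2.96 CPM in itaconate, from 13 to 151 reads. All itaconate values lay below all WT values, and KO replicate 2 lay within the itaconate range. The log2 fold change was -1.11 ± 0.51 against KO (adjusted p = 0.597 by edgeR) and -1.08 ± 0.52 against WT (adjusted p = 0.568 by edgeR). Against KO it was -0.65 without KO replicate 1 and -1.42 without the 4 libraries, and it was below 0 under all 18 other settings tried. In the same comparison the SREBP2 targets ranged from -1.21 for Nsdhl to 0.97 for Idi1, a range that includes Srebf2. Scap, the sterol sensor that escorts SREBP2, had log2 fold changes of -0.17 ± 0.37, -0.18 ± 0.37 and -0.34 ± 0.37 in the order KO against WT, itaconate against KO and itaconate against WT.

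Nr1h2 encodes LXRβ, the widely expressed LXR. It measured 43.1, 31.6 and 36.2 CPM in WT, 21.6, 27.9 and 24.1 CPM in KO, and 39.6, 26.5 and 19.6 CPM in itaconate. Its KO values all lay below its WT values (log2 fold change -0.59 ± 0.30), and the difference was -0.53 without the 4 libraries. Nr1h3 encodes LXRα, which is prominent in macrophages. It measured 85.3, 54.9 and 47.7 CPM in WT, 43.1, 46.6 and 57.5 CPM in KO, and 73.1, 43.7 and 37.1 CPM in itaconate. These ranges overlapped throughout, with a log2 fold change of -0.35 ± 0.32 for KO against WT that was -0.07 without WT replicate 1.

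The 3 tested genes of fatty acid synthesis had median log2 fold changes of -0.17, 0.10 and -0.60 in the order KO against WT, itaconate against KO and itaconate against WT. Fasn, the fatty acid synthase, had 16 to 61 reads per library and measured 2.64, 3.12 and 5.88 CPM in WT, 2.98, 1.81 and 1.57 CPM in KO, and 2.03, 3.29 and 2.32 CPM in itaconate. WT replicate 3 was the highest, and the log2 fold change of -0.85 ± 0.54 for KO against WT was -0.43 without it. Acaca, the acetyl-CoA carboxylase that commits carbon to the pathway, ranged from 3.23 CPM in itaconate replicate 1 to 12.4 CPM in itaconate replicate 3. Scd2, a desaturase that makes monounsaturated fatty acids, measured 23.5, 60.9 and 61.5 CPM in WT, 39.5, 48.9 and 41.9 CPM in KO, and 22.8, 30.4 and 41.3 CPM in itaconate. Its log2 fold change was -0.63 ± 0.36 for itaconate against WT, and it was -0.43 without WT replicate 3, -0.96 without WT replicate 1, -1.22 without the 4 libraries and -1.02 with the description number as a term. Scd1, the paralogous desaturase, had 0 to 14 reads per library, at most 1.48 CPM, and entered no test.

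Of the 4 genes of cholesterol transport, storage and oxysterol production, 3 had a log2 fold change above 0 in each comparison, with medians of 0.31, 0.30 and 0.59 in the order KO against WT, itaconate against KO and itaconate against WT. Soat1 (ENSMUSG00000026600.12, chr1:156424525-156474331, minus strand) encodes the enzyme that esterifies cholesterol for storage in droplets. It measured 1154, 923 and 915 CPM in WT, 1720, 1621 and 1397 CPM in KO, and 1273, 940 and 2182 CPM in itaconate. All KO values lay above all WT values, with a log2 fold change of 0.66 ± 0.31 (edgeR adjusted p = 0.995). The difference stayed between 0.60 and 0.78 when any 1 library was left out and was 0.89 without the 4 libraries. Soat1 and Nr1h2 were the 2 of 33 members whose KO and WT groups did not overlap, where 10.6% of all tested genes did not.

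Npc1, the membrane protein that exports cholesterol from lysosomes, measured 265, 265 and 249 CPM in WT, 294, 250 and 336 CPM in KO, and 293, 378 and 531 CPM in itaconate. Itaconate values all exceeded WT values (log2 fold change 0.63 ± 0.28, edgeR adjusted p = 0.549), and the difference was 0.38 without itaconate replicate 3 and 0.42 without the 4 libraries. With the description number as a term its sign turned, to -0.13. Npc2, its soluble partner in the lysosome, did not share this and measured 2006, 1675 and 2400 CPM in WT, 1122, 1702 and 1840 CPM in KO, and 2060, 2002 and 1131 CPM in itaconate. For KO against WT the log2 fold change of Npc2 was -0.38 ± 0.30, with overlapping groups. It was -0.19 without KO replicate 1 and -0.74 without the 4 libraries. Ch25h makes 25-hydroxycholesterol, an oxysterol that restrains SREBP processing and activates LXRs, and is known as an interferon-induced gene. It had 7 to 57 reads and measured 0.840, 2.26 and 1.60 CPM in WT, 0.733, 1.51 and 4.43 CPM in KO, and 2.68, 4.60 and 6.02 CPM in itaconate. Each itaconate value lay above each WT value (1.47 ± 0.69, edgeR adjusted p = 0.562), and the difference was 1.16 without the 4 libraries. With the description number as a term its sign turned, to -1.26. KO replicate 3 lay with the itaconate libraries, and without it the KO against WT value was -0.50 in place of 0.45 ± 0.69. Fdft1, Npc1, Ch25h, Nsdhl and Srebf2 were the 5 of 33 members without overlap between itaconate and WT, where 14.6% of all tested genes had none.

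**Figure D5:**
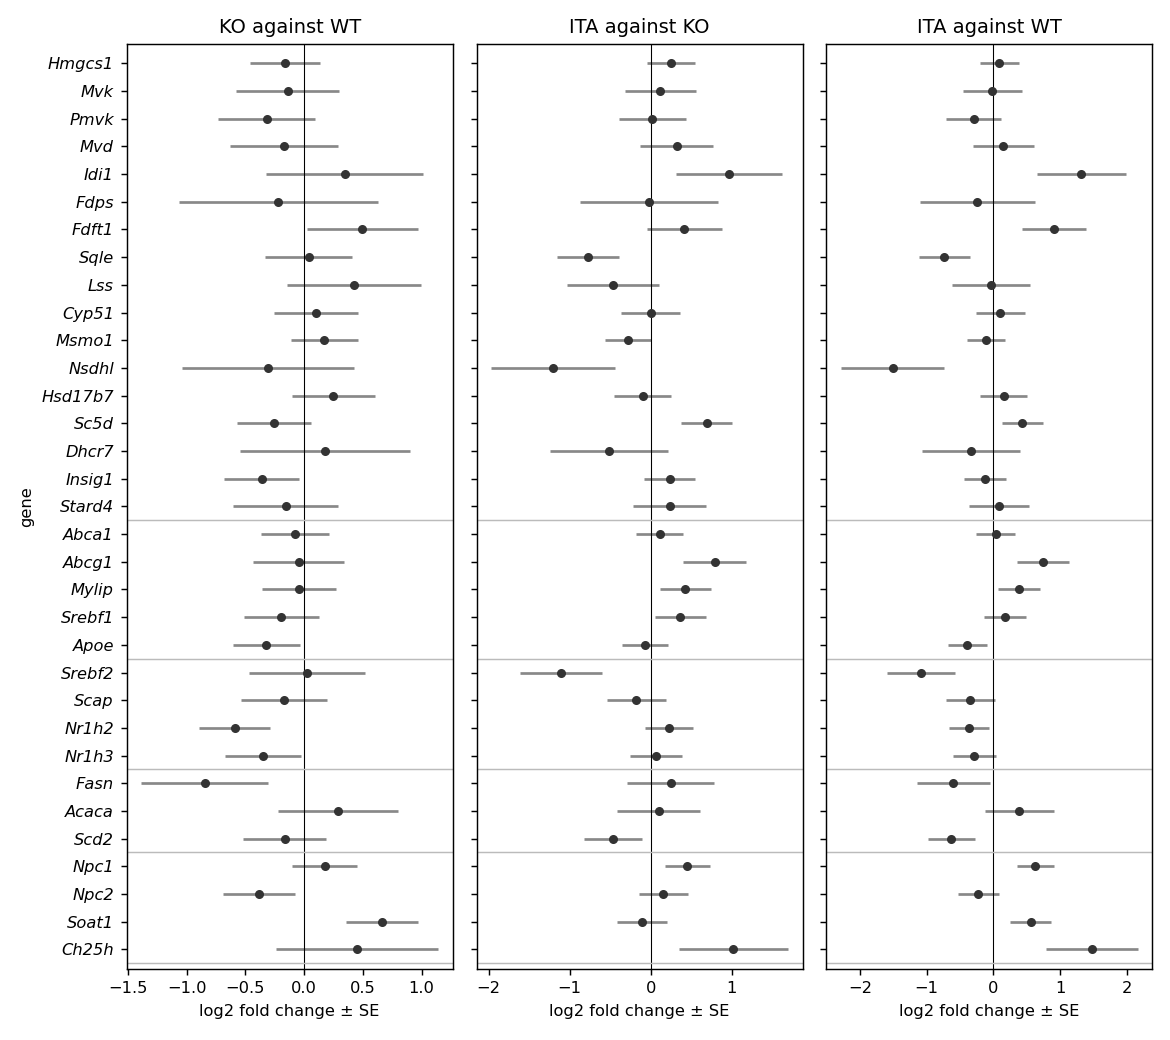
Points are log2 fold changes of the 33 tested members and bars their SE from the edgeR fit of all 9 libraries, for KO against WT, itaconate against KO and itaconate against WT, with horizontal lines between the lists. Most bars cross 0, and none of the values passed the adjusted threshold; the widest bars belong to Nsdhl, Fdps and Dhcr7, which had 0 or 1 read in ITA replicate 3.

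Of 36 other genes of these pathways 0 were called in any comparison by edgeR and 1 in each at an unadjusted p under 0.05. The other sterol genes, 8 in all, had medians of -0.04, 0.16 and 0.12 for KO against WT, itaconate against KO and itaconate against WT. Tmem97, a sterol-responsive membrane protein, was at 0.59 ± 0.31 for itaconate against KO without overlap, and Lbr, a sterol reductase of the nuclear envelope, at 0.57 ± 0.31 for itaconate against WT. The 10 other fatty acid genes had medians of -0.06, -0.24 and -0.24. Acsl3, an acyl-CoA synthetase, was at -0.94 ± 0.45 for itaconate against KO. Fads2, a desaturase of polyunsaturated fatty acids, was at -2.36 ± 1.19 for itaconate against WT at no more than 1.48 CPM. The 7 other LXR target and partner genes had medians of -0.23, 0.15 and 0.01. Arl4c, a small GTPase, was at 0.71 ± 0.34 for itaconate against WT, whereas Pltp, the phospholipid transfer protein, was at -0.81 ± 0.43. The 11 other cholesterol handling genes had medians of -0.13, -0.02 and -0.09. Cyp27a1, the sterol 27-hydroxylase, measured 4.08, 6.63 and 2.14 CPM in WT, 5.18, 6.42 and 2.95 CPM in KO, and 2.77, 1.42 and 0.211 CPM in itaconate, and its log2 fold change was -1.71 ± 0.69 for itaconate against KO (edgeR adjusted p = 0.547).

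Nceh1, which hydrolyses cholesterol esters and so opposes Soat1, was the only gene of these lists called under any setting. It measured 207, 203 and 151 CPM in WT, 549, 251 and 400 CPM in KO, and 145, 134 and 609 CPM in itaconate. The KO values lay above all WT values (1.10 ± 0.49, edgeR adjusted p = 0.995), and itaconate replicate 3 was the highest of the 9. Without the 4 libraries, which removes itaconate replicate 3, the itaconate against KO difference was -1.55 ± 0.38 (edgeR adjusted p = 0.0387), in a fit that called 217 genes, or 1.91% of 11342. With all 9 libraries that difference was -0.43 ± 0.49. In the fit without the 4 libraries, itaconate and the description number cannot be told apart.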

How the data were processed

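Libraries were made from polyadenylated RNA by priming with barcoded oligo-dT, per the labels' protocols, so that reads lie mostly near 3′ ends and strand was kept. No molecular identifier is mentioned. The deposited file is a matrix of raw counts, 1 column per library. The submitters' processing notes name STAR, HTSeq and mm10, without versions or an annotation release. Symbols were assigned to 21745 of 22165 rows by Ensembl identifier without its version. The 5 summary lines of the counter were removed before fitting. They held 23.1% to 33.7% of reads as outside genes, 17.1% to 20.0% as multiply aligned and 0.275% to 0.441% as ambiguous. Sequences came from RefSeq (GRCm38.p6) and gene positions from a GRCm38 annotation.

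Counts of all 9 libraries were fitted in edgeR 4.0.16 (R 4.3.3) with group as the sole term and TMM scaling. Filtering by expression at a minimum of 10 reads kept 10781 genes. The quasi-likelihood F test was two-sided, with Benjamini-Hochberg adjustment over all tested genes. Means of log2 CPM used a prior count of 2. The fit was tested on simulated counts with known changes. In the order KO against WT, itaconate against KO and itaconate against WT, it recovered 72, 72 and 75 of 100 4-fold changes. Of 100 2-fold changes it recovered 18, 10 and 11, so most changes of that size were missed. False calls were 6, 4 and 6. There were 19 other settings for KO against WT and 18 for each itaconate comparison: DESeq2 1.42.0, limma-voom (limma 3.58.1), other scaling and filters, a replicate block, pairs of groups, the description number, each library left out, and the 4 libraries left out. Members and lists were chosen with earlier results of these data known. Statistics are given for the 4 members with the smallest p in each comparison, for 10 members chosen by name, and for the 2 genes with the smallest p in each list of other genes. Other members were named after their values were seen, to account for all 34, and so was Nceh1 under its setting.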

Additional observations from a re-analysis of the deposited data

How the results depend on the processing

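No member was called in any comparison under any other setting (19 for KO against WT, 18 for the others), the smallest adjusted p being 0.412 for KO against WT, 0.222 for itaconate against KO and 0.176 for the itaconate to WT contrast. In that order 46 of 626, 65 of 593 and 49 of 593 log2 fold changes of members had the opposite sign to the fit of all 9 libraries, and 5 did so where both values exceeded their SE. Those 5 came with the description number as a term: Abcg1 at -0.64 against KO and -1.15 against WT, and Sc5d at -0.66, Mylip at -0.77 and Ch25h at -1.26 for itaconate against WT. That fit links itaconate to the other groups only through KO replicate 3 and itaconate replicate 1. With it the LXR median was -0.42 for KO against WT, -0.42 for itaconate against KO and -0.77 for the itaconate to WT contrast, and SREBP2 minus LXR was 0.41, 0.43 and 0.83. Among the libraries with description number 1 the KO against WT values were -0.40 for LXR and 0.41 for the difference.

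Leaving out 1 library moved the LXR median between -0.40 and 0.029 for KO against WT and between 0.15 and 0.73 for itaconate against KO. SREBP2 minus LXR moved between -0.10 and 0.41 and between -0.85 and -0.081, and the SREBP2 median for itaconate against WT between -0.20 and 0.17. With the 4 libraries of discordant Irg1 left out, SREBP2 medians were 0.12 for KO against WT and 0.18 for itaconate against WT, the KO against WT LXR median was -0.59 and its difference 0.71. Genes called over the whole table were 2, 217 and 1 without those 4 libraries, 1, 12 and 17 by DESeq2, and 80 and 92 for itaconate against KO and against WT without a filter on low counts. Without itaconate replicate 1 they were 6 and 4, and 0 when any other single library was left out. The cause was not tested.

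The replicate block called 0 genes in each comparison and gave SREBP2 medians of -0.14, 0.02 and -0.04. Same-numbered libraries share only a number: their deviations from group means correlated at -0.159 to 0.245, above 0.1 in 3 of 9 pairs. Idi1, Fdps, Lss, Nsdhl, Dhcr7, Srebf2, Fasn, Scd1 and Ch25h each had fewer than 20 reads in at least 1 library, which limits their precision. In itaconate replicate 3 Nsdhl and Fdps had 0 reads and Dhcr7 1. That library held 10374213 gene reads, against 7361671 in WT replicate 3 and 20430359 in KO replicate 1. Itaconate replicate 3 also had the highest share of reads outside genes, 33.7%. The part of depth or of that share in these low counts was not tested.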
